A study of Homo sapiens with 3 samples.

Results

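The MYC and MAX network is a small family of transcription factors that share the partner MAX. Its 10 genes were taken from the deposited tables by symbol (MYC, MYCN, MYCL1, MAX, MXD1, MXD3, MXD4, MXI1, MNT and MGA), with the transcript record of largest total count standing for each gene, out of 22824 genes in all. The libraries came from MDA-MB-231, a human breast cancer line that carries the p53 change R280K, and all 3 received control siRNA (50 nM, given on 2 occasions 24 h apart, with cells taken 48 h after the second). The labels call them biological replicates and describe no separate cultures further, so every spread and p-value below measures differences between these 3 samples, which may be partly technical. There is 1 group, so the libraries describe a baseline, and the p53 siRNA arm of the study is not analysed here.

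Proteins of this family bind DNA as pairs through a basic helix-loop-helix zipper, and they favour the E-box, whose core letters are CACGTG. MYC, MYCN and MYCL1 pair with MAX and activate genes for growth, ribosome production and metabolism. MXD1, MXD3, MXD4, MXI1, MNT and MGA pair with the same MAX and mostly repress, by bringing in SIN3 and histone deacetylase complexes or, for MGA, a Polycomb complex. MYC is among the genes most often amplified or overexpressed in breast cancer.

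Gene counts summed to between 54512366 and 84880547 per library. TPM (counts divided by transcript length and scaled to the same total in each library) is used for levels, and CPM (counts scaled to the library total, with no length) for the same gene between libraries; values are mean ± SD over the 3 libraries (n = 3) unless each library is given. Of the line's markers, ESR1 was at 0.0121 ± 0.00479, PGR at 0.0605 ± 0.00150 and CDH1 at 0.610 ± 0.231 TPM, ERBB2 at 29.03 ± 1.67 TPM, and the mesenchymal gene VIM at 4589.9 ± 160.3 TPM. The epithelial keratin genes KRT8 and KRT18 were at 752.4 ± 40.7 and 603.4 ± 33.9 TPM, so a low CDH1 level stood beside abundant keratin transcripts.

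The E-box was searched as the letters CACGTG, which read the same on both strands, in the RefSeq promoter table (build GRCh38.p14, windows from 250 bases before to 50 bases after a gene start). Of 35116 windows, 7.26% held it. A window was found for 9 of the 10 members (not for MYC), and 2 of those 9 genes held an E-box, against 8.77% of all 27305 genes with a window (2 of the members' 14 windows). These stretches are shown because the family's own binding letters lie in the promoters of members, with the E-box in capitals, on the strand of the gene, at chr4:2262330-2262359 (minus strand) for MXD4 and chr17:2401236-2401265 (minus strand) for MNT. The E-box starts at -238 in MXD4 and at -193 in MNT, relative to the gene start that each promoter window is set by. The matched transcripts of the counted records start elsewhere, at chr4:2262294 for MXD4 and chr17:2401118 for MNT.
MXD4: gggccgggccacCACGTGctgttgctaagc
MNT: ccctgcccgggcCACGTGtgcgcgcgccgg
No match in the other windows says only that these 6 letters are not in them, and binding was not measured. A window need not hold the start of the counted record. That of MXD3 is chr5:177312703-177313002, whereas its counted record starts at 177311898 (minus strand).

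MYC was the leading gene of the activating side and the other 2 were near or at 0. MYC (Entrez 4609, GRCh38 chr8:127736069-127741434, plus strand, 3 exons) encodes the activator that most cycling cells use. It stood at 62.7, 61.7 and 59.4 TPM in replicates 1, 2 and 3, from 4222, 5193 and 3162 counts. The 3 libraries lie close together, and MYC was higher than 80.4% to 82.1% of the genes with a count.

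MYCL1, the older name of MYCL, encodes a paralogue first found in lung cancer and lies on chromosome 1. Its record held 8, 33 and 23 counts in replicates 1, 2 and 3, which is 0.117, 0.389 and 0.422 CPM. The exact 95% Poisson intervals are 0.0503 to 0.230 CPM in replicate 1, 0.268 to 0.546 CPM in replicate 2 and 0.267 to 0.633 CPM in replicate 3. Replicate 1 was the lowest, and with counts as deposited its interval does not meet those of the others. However, both mates of a read pair appear to be counted (genes with exactly 2 counts outnumber those with 1). These intervals are therefore too narrow, and the gap is not read as a difference between libraries. The record also shares 226 exon bases with an antisense transcript of GENCODE, AL033527.2, and without a stated strand setting reads from the pair cannot be told apart. MYCN, the paralogue of the nervous system and of neuroblastoma, had 0 counts in each library. With a limit of 3 read pairs (6 counts), its level could still have been up to 0.0874, 0.0707 or 0.110 CPM in replicates 1, 2 and 3. Such limits and intervals cover counting error only.

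MAX, on chromosome 14 (Entrez 4149, GRCh38 chr14:65075124-65102544, minus strand), encodes the partner with which the other members bind E-boxes (several repressors can also pair with MLX). By its largest record it was at 48.9, 45.9 and 46.7 TPM in replicates 1, 2 and 3. MYC exceeded MAX in 3 of 3 libraries, by a ratio of 1.299 ± 0.0380 in TPM. That order rests on a choice of record. The record NM_145113 held 2979, 3501 and 2250 counts, and the record NM_002382 held 2970, 3496 and 2247, within 9 counts of it in every library. Their matched transcripts are 2141 and 1546 bases long, so with the shorter one MAX is at 65.2 ± 2.05 TPM and the MYC to MAX ratio is 0.940. With the counts of all records of a gene summed the ratio was 0.335, and with their mean it was 2.01. MAX has 6 records and MYC 1, so a sum can count reads of MAX several times. The summed ratio therefore also depends on the number of records. With these choices the ratio lies on either side of 1, so these counts do not settle which transcript was the more abundant. Records of MAX that end elsewhere held less, at 24.9% to 26.9% of the largest for NM_145114 and NM_197957 and 38.6% to 41.0% for NM_145116.

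**Figure D1:**
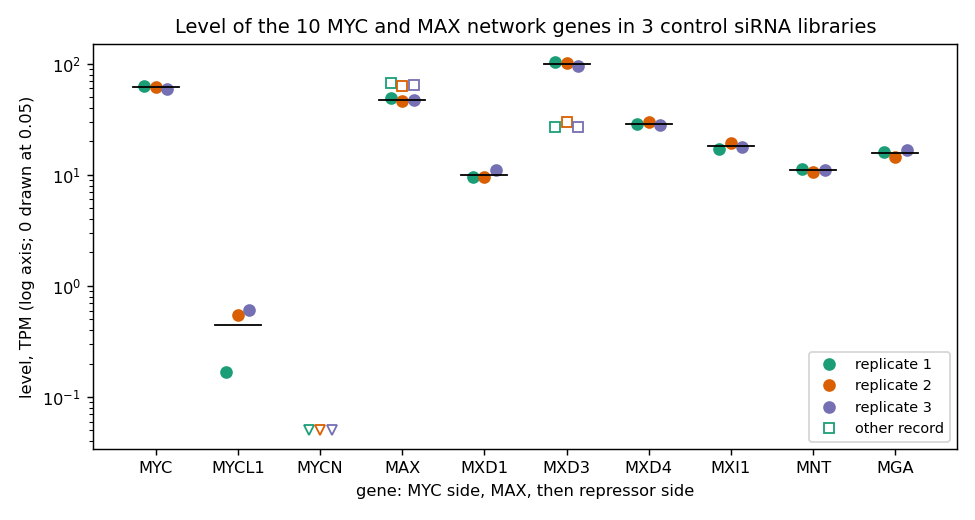
Level of each member in TPM on a log axis, by library (coloured points), with black bars for the mean of the 3 libraries; open triangles mark 0 counts. Open squares give MXD3 from NM_031300 and MAX from NM_002382, records that change the order: MXD3 falls to 27.9 TPM and MAX rises to 65.2 TPM. The MAX record NM_197957, at 77.5 TPM, is not drawn.

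On the repressor side all 6 genes were detected at 1 CPM or more in each library. MXD4 (Entrez 10608, chromosome 4) encodes a repressor of the MXD group, which recruits SIN3, and had 28.4, 30.05 and 28.1 TPM in replicates 1, 2 and 3. MXI1 (Entrez 4601, chromosome 10) encodes a repressor of the same kind, and it had 16.9, 19.2 and 17.9 TPM. MGA, the largest protein of the family, also has a T-box domain and belongs to the Polycomb complex PRC1.6; its gene on chromosome 15 had 15.9, 14.5 and 16.8 TPM. These 3 genes thus lay below MYC in every library, and MXI1 lay above MGA in 3 of 3 libraries, with the lowest MXI1 value (16.9 TPM) only just over the highest of MGA (16.8 TPM).

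MNT, often called the broadly expressed antagonist of MYC, lies on chromosome 17 and had 11.4, 10.6 and 11.1 TPM. MXD1, a repressor best known from differentiating cells, lies on chromosome 2 and had 9.63, 9.59 and 10.9 TPM. The ranges of MNT and MXD1 overlap, so their order is not beyond the spread between libraries, although MNT was the higher in 3 of 3. MNT shares 1065 of its 4996 exon bases with an antisense transcript, AC006435.1, and how far antisense reads enter its count was not tested.

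MXD3 was the highest member by the rule, and its value depended on which of its records was counted. MXD3 (Entrez 83463, GRCh38 chr5:177305500-177311898, minus strand) encodes a repressor active in cells that are dividing. Its largest record, NM_001142935, held 6645, 8223 and 4862 counts in replicates 1, 2 and 3, which is 102.9, 101.8 and 95.2 TPM. Its other record, NM_031300, held 1140, 1563 and 904 counts, or 17.2% to 19.0% of the largest. No other record of a member was so small a share of the largest record of its gene.

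The long last exon of NM_001142935, 1696 bases, reaches over the end of PRELID1 on the opposite strand. PRELID1, which encodes a mitochondrial lipid transfer protein, held 9666, 12098 and 6864 counts. The long MXD3 record shares 731 bases with the 1261 exon bases of the counted PRELID1 transcript, and NM_031300 shares 0. The long record exceeded NM_031300 by 5505, 6660 and 3958 counts in replicates 1, 2 and 3. The share of the PRELID1 count that its overlapping bases would hold, if reads lay evenly along it, is 5603, 7013 and 3979 counts. The 2 sets of numbers are close in all 3 libraries, the strand setting of the counting is not stated, and reads of the 2 genes cannot be told apart here. From NM_031300, MXD3 was at 27.0, 29.6 and 27.1 TPM in replicates 1, 2 and 3, a range that overlaps that of MXD4 (28.1 to 30.05 TPM).

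**Figure D2:**
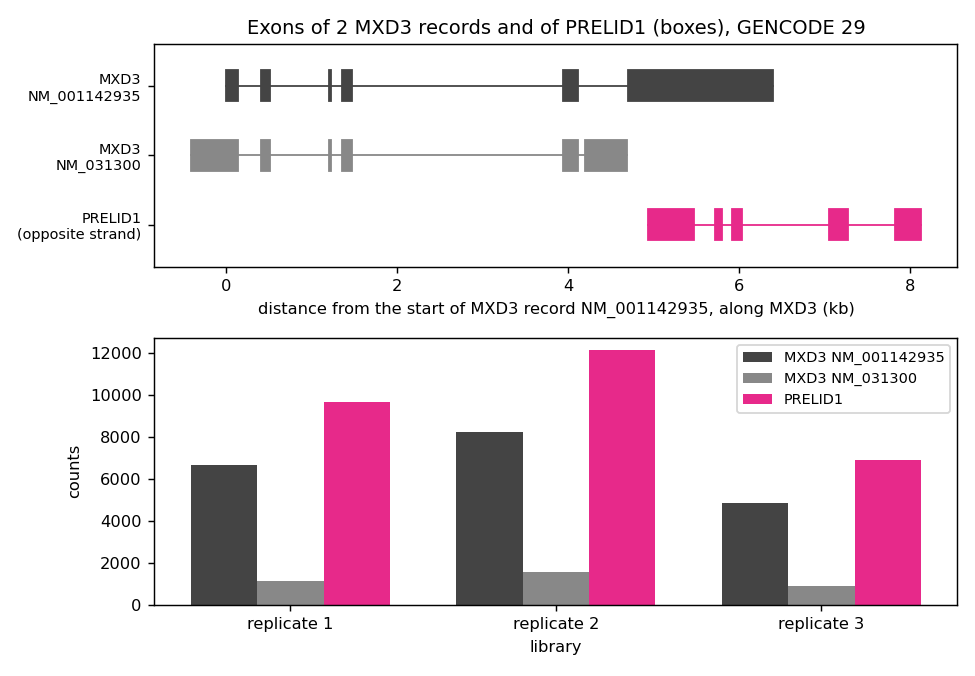
Upper panel: exons (boxes) of 2 MXD3 records and of PRELID1, in kb from the start of the longer-counted MXD3 record, from GENCODE 29. Lower panel: counts of the 3 in each library; PRELID1 is the highest and NM_031300 the lowest in every library, and the MXD3 record that overlaps PRELID1 lies between them.

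**Figure D3:**
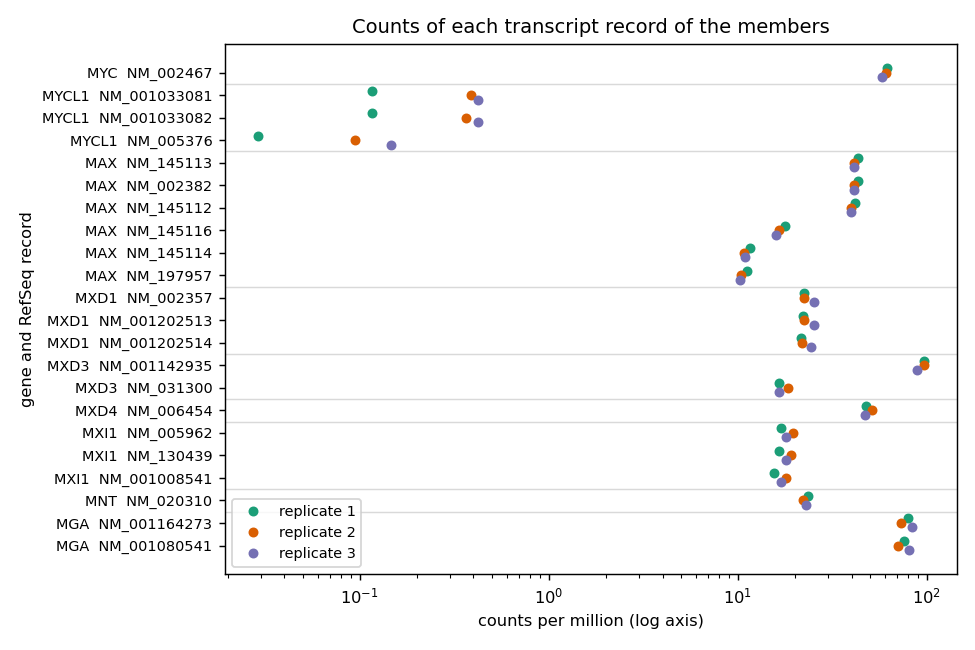
Counts scaled to the library total (CPM) of each transcript record of the members with a count (log axis, coloured by library). The records of MXD1, MXI1 and MGA nearly coincide within each gene, whereas those of MXD3 lie apart, at 89.2 to 96.9 and 16.6 to 18.4 CPM. Records of MAX also spread, from 10.3 to 43.4 CPM, and NM_005376 of MYCL1 lies below the others of that gene.

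Ordered by mean level, the members ran MXD3, MYC, MAX, MXD4, MXI1, MGA, MNT, MXD1, MYCL1 and MYCN, and only MNT and MXD1 overlapped among neighbours. With NM_031300 the order began with MYC, MAX, MXD4 and MXD3. The activating side summed to 62.9, 62.2 and 60.0 TPM in replicates 1, 2 and 3, and the 6 repressor genes to 185.1, 185.7 and 180.2 TPM. The ratio of the activating to the repressor sum was 0.336 ± 0.00337, and 0.553 ± 0.0204 with MXD3 from NM_031300. In CPM, which takes no account of length, it was 0.212. With each of these settings the sum of repressor transcripts was larger than that of MYC in 3 of 3 libraries, with MYC being 20.9% ± 0.212 of the summed member TPM, or 27.8% ± 0.610 from NM_031300. These are levels of RNA, and protein amounts or pairing were not measured.

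The spread between libraries was small. The highest library exceeded the lowest by 1.05-fold for MAX and 1.06-fold for MYC and MNT in CPM, and by 1.15-fold for MXI1, the widest of the 8 members at 1 CPM or more. In the test of variation beyond counting noise (edgeR deviance of an intercept-only fit, adjusted by Benjamini-Hochberg over 14432 genes), 6 of the 8 tested members were called, against 53% of all genes; MYCN and MYCL1 did not pass the filter on low counts. With each read pair counted once, 2 of 8 were called, MGA and MXD3, against 28.5% of all genes. The share among the members was thus near the background. This test allows no variation beyond counting noise, whereas edgeR's common coefficient of variation for these libraries was 0.054. With a coefficient of variation of 0.05 allowed, 0 members were called in counts as deposited.

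MGA had 79.4, 73.2 and 83.7 CPM, by replicate, with replicate 2 the lowest (edgeR adjusted p = 0.000108 with each pair counted once, and 0.0043 with offsets for base composition). Without replicate 2 its adjusted p in the undivided test was 0.0874. MGA has the longest transcript of the members, at 12042 bases, and the part of length was not tested. HUWE1 and the cofactor EP300 were also lowest in replicate 2 in CPM, whereas the cofactor TRRAP was lowest in replicate 3. MXD3 was at 96.8, 96.9 and 89.2 CPM, lowest in replicate 3 (adjusted p = 0.00378 with each pair counted once). Its call ended with offsets for base composition (adjusted p = 0.271), and from NM_031300 with each pair counted once the adjusted p was 0.193. PRELID1, whose exons overlap the long record, was also called (adjusted p = 1.76e-08 with each pair counted once). MYC was lowest in replicate 3, at 61.5, 61.2 and 58.0 CPM (edgeR adjusted p = 0.0191 in counts as deposited, 0.205 with each pair counted once). Without replicate 3 the edgeR adjusted p of MYC was 0.834 and that of MXD3 was 0.962, so both calls rest on that library.

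The base composition of the transcripts stood beside these deviations as follows. Transcripts of MXD1 and MGA have 42.7% and 43.1% GC and were highest in replicate 3, by 0.11 and 0.09 above the mean of log2 CPM. Transcripts of MYC, MXD3 and MXD4, with 53.9%, 55.8% and 64.0% GC, were lowest there, by -0.05, -0.08 and -0.05. MXI1 and MAX, with 45.3% and 49.5% GC, were both at -0.02 in replicate 3, and MNT, with 61.4% GC, was at 0.01. Over all genes 15.3% were called with base-composition offsets and each pair counted once, and of the members MGA alone was. The part of base composition in a single member was not tested beyond those offsets.

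**Figure D4:**
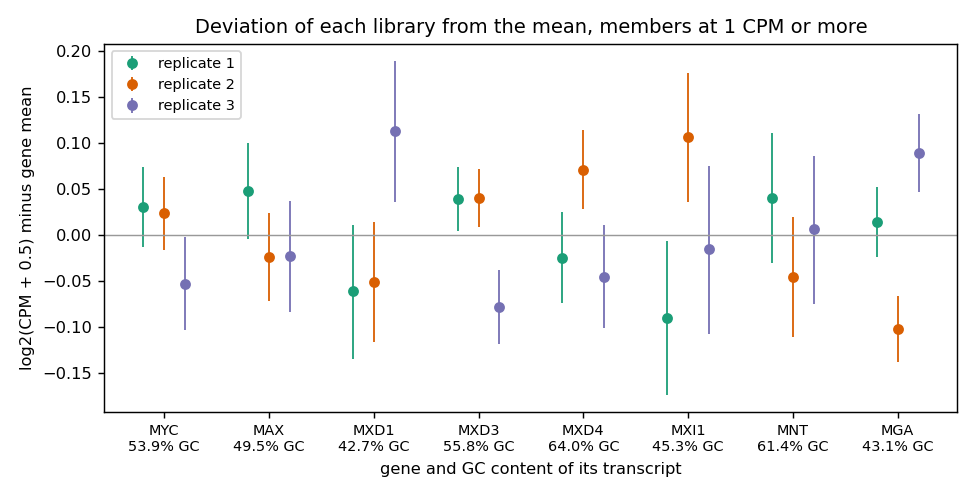
Deviation of each library from the gene mean in log2(CPM + 0.5) for the 8 members at 1 CPM or more, with exact 95% Poisson intervals of the count as bars and the GC content of each transcript under its name. MGA lies lowest in replicate 2 and MXD3 lowest in replicate 3, and the farthest point from 0 is MXD1 in replicate 3, at 0.11.

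Of the 9 lists of genes around the network, 8 had a median level above that of the members in TPM, and the repressed targets lay below. The median of log2(TPM + 1) was 4.16 ± 0.04 over the 10 members and 3.40 ± 0.02 over all genes with a count. In the related branch built on the partner MLX, all 3 genes were detected, with MLX at 83.6 ± 1.47 TPM above MLXIP at 26.2 ± 2.41 TPM and MLXIPL, the glucose-sensing regulator of liver, at 2.95 ± 0.450 TPM. MLXIP was highest in replicate 1, with 101.2 CPM there against 88.6 CPM in replicate 2 and 85.4 CPM in replicate 3. Its edgeR adjusted p was 1.33e-10 with each pair counted once and 8.29e-07 with base-composition offsets as well. Among other bHLH-zipper factors that bind E-boxes, 8 of 9 were detected, led by the lipid regulator SREBF1 at 190.2 ± 7.19 and USF2 at 157.0 ± 0.377 TPM, and SREBF2 at 79.8 ± 2.10 TPM, whereas TFEC had a count in 1 library alone.

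Cofactors of MYC were all detected, 18 of 18, with a median of 5.68 ± 0.03. The helicase RUVBL2 was at 236.5 ± 10.3, the chromatin subunit ACTL6A at 200.1 ± 5.26 and the elongation factor PAF1 at 141.1 ± 2.77 TPM, and the cyclin CCNT1 was lowest at 15.7 ± 0.962 TPM. Corepressors of the MXD side were detected in 11 of 11, with a median of 6.22 ± 0.07. The deacetylases HDAC1 and HDAC2 were at 328.8 ± 4.49 and 223.3 ± 11.2 TPM, and the SIN3 subunit SUDS3 had the lowest mean, 33.4 ± 2.35 TPM, with a range that overlaps that of SIN3A (33.8 ± 0.129 TPM). Of the PRC1.6 partners of MGA 11 of 11 were detected, from CBX3, which reads methylated histone H3, at 284.4 ± 19.7 TPM and TFDP1 at 188.5 ± 5.28 TPM to YAF2 at 5.15 ± 0.426 TPM.

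Genes that set the stability of the MYC protein were detected in 18 of 18. The PP2A inhibitor SET was at 472.7 ± 28.5 TPM and the kinase AURKA, which protects MYCN, at 208.3 ± 4.16 TPM. The lowest was FBXW7, which marks MYC for the proteasome, at 7.52 ± 0.507 TPM. The ligase HUWE1 had 673.3, 579.8 and 646.3 CPM, by replicate, and was lowest in replicate 2. Its edgeR adjusted p was 2.31e-60 with each pair counted once and 2.4e-62 with base-composition offsets as well. The range was 1.16-fold in CPM, and with 35230 counts or more per library the test calls small differences. KIAA1524, which encodes the PP2A inhibitor CIP2A, was highest in replicate 3, at 108.2, 108.3 and 128.3 CPM. Its edgeR adjusted p was 6.95e-13 with each pair counted once and 0.00948 with base-composition offsets as well. Of 10 regulators of the MYC transcript 9 were detected. HNRNPK was at 770.1 ± 22.1, CNBP at 540.7 ± 3.37 and PUF60 at 165.2 ± 7.24 TPM, and IGF2BP1, which stabilises the MYC message, was at 0.103 ± 0.143 TPM.

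Targets that MYC is known to activate had the highest median of these lists in TPM, 7.14 ± 0.06 (in CPM the corepressors were higher), and 27 of 28 measured were detected. LDHA, the lactate dehydrogenase gene, was at 2599.1, 2669.4 and 2672.8 TPM, the nucleolar gene NPM1 at 2422.0, 2427.2 and 2736.2 TPM and NCL at 596.6, 551.5 and 611.7 TPM in replicates 1, 2 and 3. NPM1 was highest in replicate 3. The folate carrier SLC19A1 was the lowest, at 0.0593 ± 0.0784 TPM. With each pair counted once 18 of 27 varied, against 28.5% of all genes, and 13 of 27 with base-composition offsets, against 15.3%. In the same test without offsets, 10 of 18 cofactors, 10 of 18 stability genes and 6 of 11 corepressors were called. So were 4 of 8 bHLH-zipper factors, 4 of 11 PRC1.6 partners and 3 of 9 transcript regulators. For repressed targets it was 3 of 10 and for the MLX branch 1 of 3. The test gains power with counts, and shares at matched counts were not compared. The ribosome biogenesis gene BOP1 had 122.9, 112.7 and 100.6 CPM by replicate. Its range was the widest among the activated targets called with each pair counted once, after RRS1, at 14.9, 13.4 and 12.1 CPM. With base-composition offsets RRS1 was no longer called (edgeR adjusted p = 0.168), whereas BOP1 was (edgeR adjusted p = 0.0011). Targets that MYC is known to repress had a median of 3.12 ± 0.08, with 10 of 14 detected. TXNIP, the glucose-responsive arrestin, was highest at 342.5 ± 13.2 TPM, followed by the matrix gene THBS1 at 222.8 ± 17.7 and NDRG1 at 98.2 ± 7.77 TPM, and GAS1 and CDKN2B held 0 counts. These lists describe known biology and not a response of this line to MYC, whose level was not altered.

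**Figure D5:**
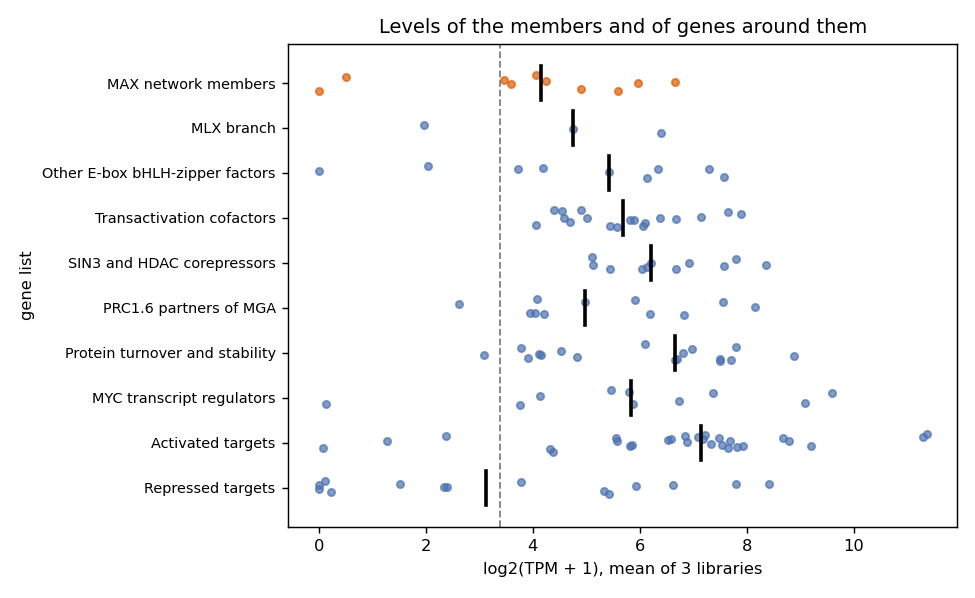
Level of each gene, as the mean of log2(TPM + 1) over 3 libraries, for the members (orange) and for lists of genes around them (blue); black bars are list medians and the dashed line is the median of all genes with a count. The activated targets centre at 7.14 and the repressed targets at 3.12.

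E-boxes were more common in the windows of the activated targets than in those of all genes, which is a property the list was in part chosen for and no measurement of these cells. Of 25 targets with a window, 15 held CACGTG (60.0%), against 8.77% of all 27305 genes. The stretches of 3 targets with the highest or most variable levels are shown, E-box in capitals, at chr11:18394366-18394395 (plus strand), chr1:11060200-11060229 (minus strand) and chr4:98929341-98929370 (minus strand).
LDHA: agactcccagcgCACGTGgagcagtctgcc
SRM: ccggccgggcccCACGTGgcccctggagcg
EIF4E: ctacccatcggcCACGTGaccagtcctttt
SRM, the spermidine synthase gene, had 78.4, 70.5 and 65.7 CPM by replicate, and the translation factor gene EIF4E had 63.0, 71.6 and 72.04 CPM, so that replicate 1 was the highest for SRM and the lowest for EIF4E. NPM1 and NCL, among the most abundant of the list, had windows without the E-box. SLC19A1, the lowest of the list, also held the E-box, and RRS1 and BOP1 had no window. An E-box thus did not mark only the abundant or variable targets.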

How the data were processed

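RNA from 3 libraries was read as pairs of 100 bp, per the labels. The authors deposited raw counts per RefSeq transcript record, per the file headers; per the submitters' processing notes, the tools were TopHat2, Cufflinks and FastQC and the build hg19. The counting tool, strand setting and treatment of multiply mapped reads are not given in the sources used here, and could change counts of overlapping genes. Copies of a record on alternative haplotypes were summed, and a gene's count was its record of largest total. Of 6937 unnamed records, 6318 were matched by accession to RefSeq. Lengths came from GENCODE 29 transcripts of the same accession. A record without a match took the median length of the matched records of its gene. With both, 95.9% of genes with a count had a length. Coordinates are GRCh38. Variation was tested in edgeR 4.0.16 (TMM, filterByExpr, dispersion 0, deviance against a chi-square, adjusted p threshold 0.05) in R 4.3.3, with DESeq2 1.42.0 size factors as an alternative, and tested on simulated data. Each pair counted once means the deviance divided by 2. Base-composition offsets are medians of 20 GC bins. Other steps used Python 3.11.15. Members and lists were chosen with earlier results of these data known. All members are named; of each other list, the 3 highest, the lowest and up to 4 varying members could be named, and others were chosen after their values were seen. 1 gene that this rule would name is not reported here.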

Additional observations from a re-analysis of the deposited data

How the results depend on the processing

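Of the 90 member levels recomputed, 72 stayed within 1 SD of the reported value and 18 did not; of 30 list levels 11 did and 19 did not. The number of varying genes, 7656, and of varying members, 6, stayed within 1.5 times with DESeq2 size factors, no filter (8281 and 7), or the largest single record. With each pair counted once they were 4119 and 2, with MXD3 from NM_031300 as well 4116 and 1, and with base-composition offsets as well 2201 and 1. Allowing a coefficient of variation of 0.05 left 161 genes and 0 members, and 0.1 left 17 genes and 0 members (edgeR; 0 members also at an unadjusted p under 0.05). Leaving out each library gave 3571 to 5663 genes and 3 to 5 members; the 3571 were without replicate 3, when the members were MGA, MXD4 and MXI1, and without replicate 2 they were MYC, MXD1 and MXD3. The MYC to MAX ratio, 1.299, was 1.44 in CPM, 0.335 with counts summed over records, 2.01 with their mean and 0.940 with MAX from NM_002382. The activating to repressor ratio, 0.336, was 0.212 in CPM, 0.229 summed, 0.434 averaged and 0.553 with MXD3 from NM_031300. Both summed ratios also depend on the number of records per gene, from 1 for MYC to 6 for MAX. Of 10 members, 5 kept their place in CPM, 2 summed and 6 with MXD3 from NM_031300. Choices from NM_002382, NM_031300 and base-composition offsets were added after the data were seen. Leaving out each library kept both ratios within 1 SD and all 10 places. No paired analysis was possible because there is 1 group. The cause of these changes was not tested, apart from the length or record each alternative replaces. Depth limits MYCN and MYCL1, whose counts are at or near 0.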

Other observations

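The genes nearest to MYC in level over the 3 libraries, by root mean square difference in log2(TPM + 1), were CPSF1 (0.0114), FANCG (0.0145) and NKIRAS2 (0.0147), and those nearest to MAX were IKBKAP (0.0103), ADAT1 (0.0129) and the histone acetyltransferase gene KAT2A (0.0189). With 3 libraries of 1 group this likeness is one of level alone.

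CACGTG was in the windows of 1 of 3 genes of the MLX branch, 3 of 12 cofactors, 4 of 13 genes of protein stability, 1 of 9 corepressors, 1 of 11 PRC1.6 partners and 1 of 10 repressed targets with a window, and in 0 of 8 other bHLH-zipper genes and 0 of 5 regulators of the MYC transcript, against 8.77% of all genes.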
